A study of Mus musculus with 6 samples.

Results

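The genes described here are 10 mouse genes, Arhgap33, Crbn, Enox2, Pex2, Phc1, Poln, Rab3il1, Skiv2l, Slc35c2 and Trim27. These genes ranked near the top of a test for changed relative use of transcripts between hippocampi of WT and Prmt9 KO mice. The ranking goes by p and not by the size of the shift. They were chosen by the transcript usage test of these same samples, from the 13560 genes in which the relative use of at least 2 transcripts could be tested, and they took places 2 to 10 and 12 of that ranking. The values that separate the genotypes in these genes are therefore a description of what chose them, and no test is attached to them. The last gene of the list was Phc1, with an adjusted p of 0.001797 in edgeR's transcript usage test (diffSpliceDGE with a Simes test per gene). The next gene outside it, Nrxn2, also had an adjusted p of 0.001797, so the end of the list does not mark a step. The same test called 23 genes at an adjusted p below 0.01, or 0.170% of those tested; all 10 genes are among them because the rule put them there.

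A gene gives several transcripts when its RNA begins at another start site, when an exon is left out or kept, when a splice site moves, or when an intron stays in the message. Such a change can alter the protein, or it can alter only the untranslated regions (UTRs) before and after the coding part, which bear on how well a message is translated and how long it lasts. A transcript whose stop codon lies well upstream of its last exon junction can be degraded by nonsense-mediated decay (NMD), and transcripts annotated as retained_intron have no annotated protein. PRMT9 is an arginine methyltransferase that modifies SF3B2, a part of the SF3B complex. That complex binds the unspliced RNA upstream of the branch point, and the study proposes that methylation of SF3B2 affects the choice of 3′ splice site. The study compared these mice to find RNA splicing changed by the loss of PRMT9.

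Hippocampus RNA came from 2-week-old female B6J mice, 3 WT and 3 Prmt9 KO littermates. The KO mice lack exon 5 of Prmt9 in every cell, because a floxed allele had been deleted in the germline by CMV-Cre; WT mice carry the undeleted gene. Polyadenylated RNA was sequenced as stranded libraries with paired-end reads of 100 bases, and the authors assigned the reads to annotated transcripts with kallisto. Levels are in TPM, a transcript's share of all RNA molecules in the library after scaling by its length; in whole tissue, fewer cells of a type and less RNA per cell cannot be told apart. Prmt9 itself stood at 11.78, 15.25 and 14.96 TPM in WT and at 3.93, 4.61 and 4.67 TPM in KO mice 1, 2 and 3.

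The libraries held 194098391 to 249217021 estimated counts in WT and 222085851 to 286771677 in KO mice. The mice numbered 1 of both genotypes stood apart from the other 4 on the first principal component of gene levels, which carried 80.5% of the variance, and 37.37% of transcripts had no count in WT1 against 22.75% to 24.76% in the others. All 6 markers of hippocampal neurons looked up were detected in every mouse, with a summed level of 994 to 1319 TPM in WT and 1058 to 1275 TPM in KO. The sum was 994 to 1058 TPM in the mice numbered 1 and 1210 to 1319 TPM in the other 4. Prox1 was at 20.3 to 24 against 38.2 to 41.4 TPM and Wfs1 at 52.3 to 68.2 against 101 to 111 TPM. Grik4, Calb1 and Slc17a7 were also lower in the mice numbered 1, and Neurod6 overlapped. The 3 markers of choroid plexus summed to 599 to 7240 TPM over all mice, and the mice numbered 1 differed from the other 4 in every glial and vascular marker list. Of the oligodendrocyte markers, Mbp was at 698 to 1431 TPM in the mice numbered 1 and at 4764 to 6772 TPM in the other 4, and Mog at 13.3 to 28.3 against 107 to 178 TPM. The 3 markers of astrocytes summed to 925 to 926 against 1300 to 1441 TPM, those of microglia to 138 to 149 against 183 to 191 TPM, and those of endothelium to 113 to 129 against 66.2 to 81.3 TPM. The part of these differences in the transcript values below was not tested. Among the 74 tested transcripts of the 10 genes, the share of the gene's TPM placed both mice numbered 1 on one side of the other 4 in 20 (27.0%), against 47.1% over all 69062 tested transcripts. The genotypes did not overlap in 18 of the 74 (24.3%; background 9.16%), 10 of them higher and 8 lower in KO, a count that the choice of genes inflates and from which nothing is read.

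In each gene the transcript with the smallest p of the usage test is called its leading transcript here, a choice made after the values were seen. Of the 10 leading transcripts 7 were higher and 3 lower in KO. None was the most abundant transcript of its gene, and 8 of them stayed below 3 TPM in every mouse. In 4 genes (Trim27, Rab3il1, Skiv2l and Pex2) the rounded count of the leading transcript was 0 in all 3 WT mice, and in Poln it was 0 in all 3 KO mice. By counting error alone a count of 0 allows up to 3 counts in that mouse, but a fractional assignment among overlapping transcripts has further error that is not in the files. An annotated coding part is given for 9 leading transcripts, and in 5 of these (Pex2, Enox2, Arhgap33, Slc35c2 and Phc1) it is base for base that of the gene's most abundant transcript. Over all tested transcripts other than the most abundant one of their gene, 12.1% of the 29949 with a coding part share it with that transcript. Those 29949 were not picked by p as the leading transcripts were, so nothing is read from the difference.

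**Figure D1:**
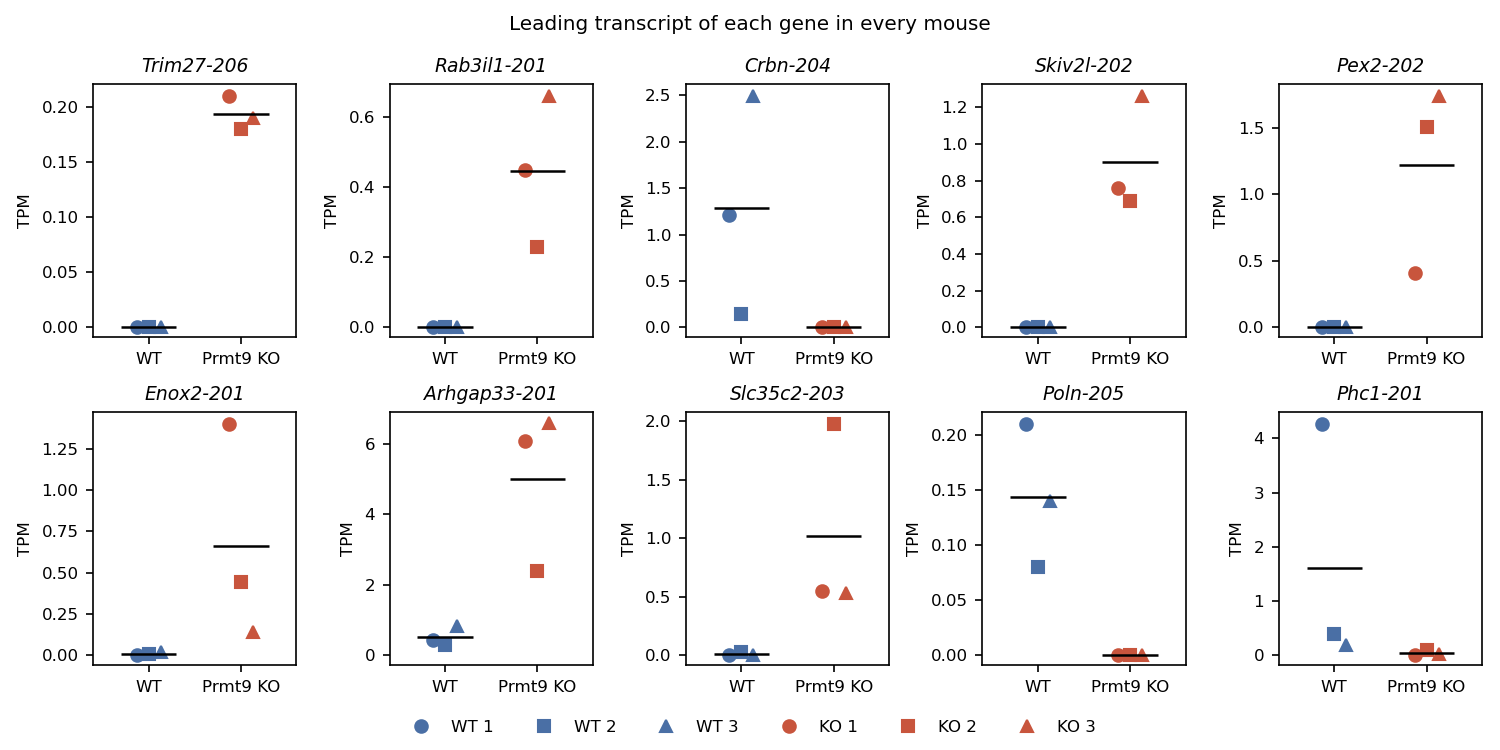
TPM of the leading transcript of each gene (vertical axis, its own linear scale in each panel) in the 3 WT and 3 Prmt9 KO mice, with the replicate number as the symbol and the group mean as a line. The values of the genotypes do not overlap in any panel, as the choice of genes implies, and in most panels 1 genotype lies at or near 0.

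At the 5′ end of the message, 6 leading transcripts differ from their nearest relative (Trim27, Pex2, Enox2, Slc35c2, Arhgap33 and Phc1). The others comprise 1 that differs in the 3′ UTR, 1 that begins at another first exon and has an incomplete coding part, 1 that skips a coding exon and 1 without an annotated protein. The drawing of exons shows each of them beside the transcripts it is compared with.

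**Figure D2:**
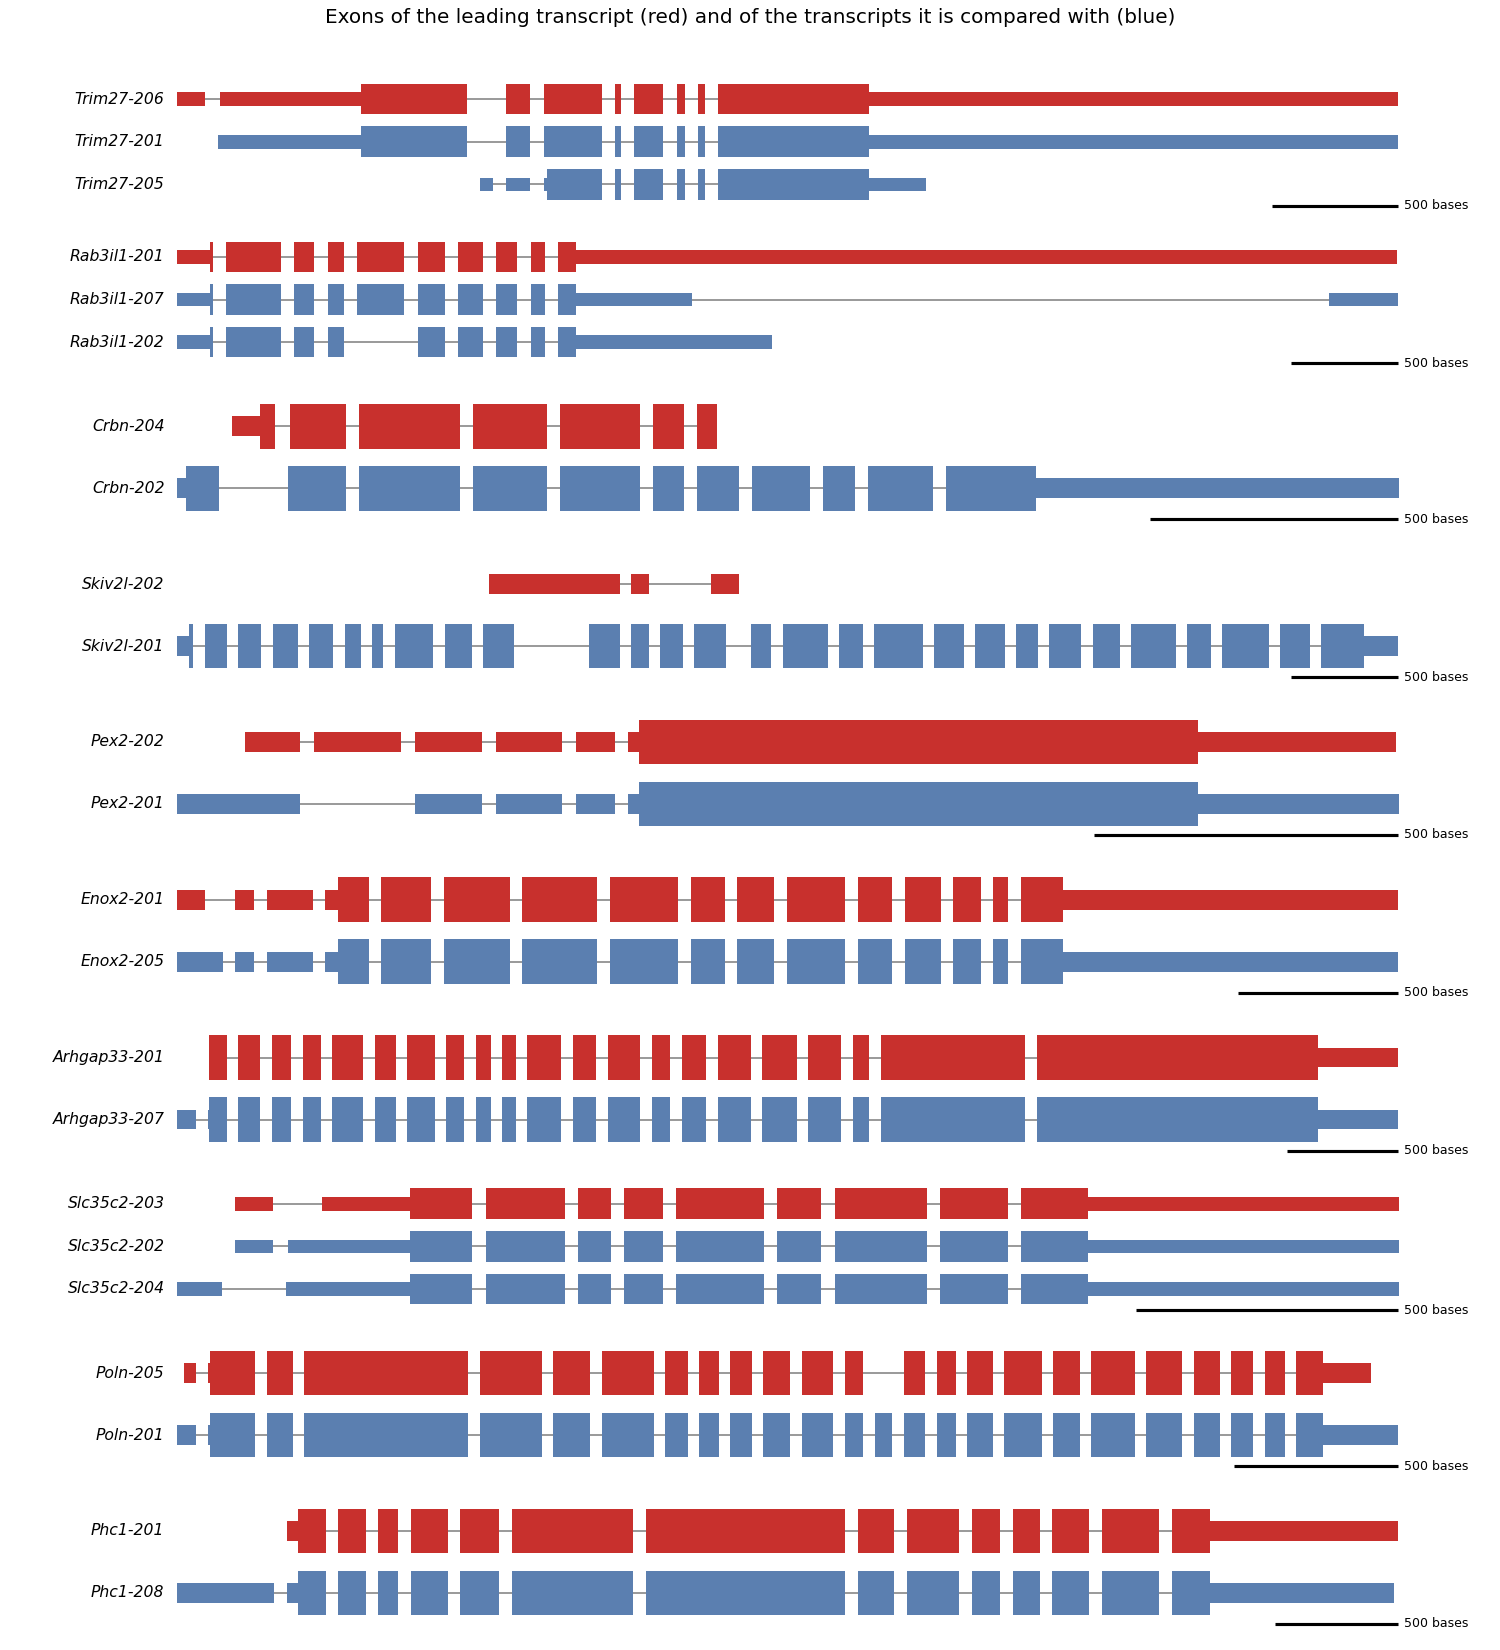
Exons of each leading transcript (red) above the transcripts it is compared with (blue), drawn 5′ to 3′ with coding parts tall and UTRs or noncoding exons low; exons are to scale within a gene (bar, 500 bases) and introns are shortened to thin lines. The coding parts of the red and lower blue models coincide in Pex2, Enox2, Arhgap33, Slc35c2 and Phc1.

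Short sequences show the joins that set leading transcripts apart. They are from the GENCODE M21 transcripts (build GRCm38), 15 bases on each side, with the base on each side of the removed intron in capitals; no other annotated transcript of the gene has the same join. For Enox2 the same place is also given as it reads in the relative that runs through it, with the GT of the splice site in capitals.
Trim27-206, intron chr13:21179557-21179935, forward strand: tactcacttgaggaAGagccgaggcctagc
Crbn-204, intron chr6:106795995-106798946, reverse strand: ctgtgattttcatgGAcagtgaagatgaag
Skiv2l-202, intron chr17:34845238-34845827, reverse strand: atcaatgatgctgaGGgaacagccccaaga
Enox2-201, intron chrX:49286905-49288156, reverse strand: ggaacttccgagcgGGggaacctgatttga
Enox2-205, the same 5′ splice site read through: ggaacttccgagcggGTccgattttccgcg
Poln-205, intron chr5:34103964-34107086, reverse strand: ttggaatatagacaGGgctccatctcttct
Counted in 31-base words, the unit kallisto uses by default, Crbn-204, Skiv2l-202, Enox2-201, Slc35c2-203 and Poln-205 hold 27 to 30 words of their own within the gene. Trim27-206 holds 113. Pex2-202, Arhgap33-201 and Phc1-201 hold 0, so no single word sets them apart from the gene's other transcripts, while Rab3il1-201 holds 2500 (48.9% of its words). The median over the 10 was 1.29% of a transcript's words, against 11.7% over all tested transcripts, and 11.5% of all tested transcripts held none.

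Trim27 (chr13:21179445-21194724, forward strand) encodes a RING-domain E3 ubiquitin ligase. Trim27-206 (ENSMUST00000222544) begins at a 112-base untranslated first exon of its own and codes for the same 513 residues as Trim27-201. It was at 0 TPM in all 3 WT mice and at 0.21, 0.18 and 0.19 TPM in KO mice 1, 2 and 3, or 114.9, 115.1 and 107.5 estimated counts. The KO mice were close to each other, at 0.57%, 0.611% and 0.592% of the gene's TPM. The 2 transcripts that code for the 513-residue protein together made up 2.47%, 4.11% and 3.72% of the gene in WT and 2.67%, 4.38% and 3.56% in KO, with overlapping ranges. The most abundant form, Trim27-205, begins at another first exon and codes for 337 residues. It stood at 17.18, 16.36 and 17.50 TPM in WT and 22.59, 16.84 and 17.39 TPM in KO, again overlapping.

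The largest decrease of share in Trim27 was that of Trim27-207, which codes for 314 residues. It lacks 5 coding bases at a 3′ splice site (chr13:21190092-21190096, forward strand), shown in capitals as they stand in Trim27-205 with 12 transcript bases on each side; the skipped bases end in AG. The second line has the base on each side of the Trim27-207 join in capitals.
Trim27-205: aacagttcacagAAAAGatgcagtcagat
Trim27-207: taaaacagttcacaGAtgcagtcagatatg
Trim27-207 held 0.2494, 0.2376 and 0.2068 of the gene's TPM in WT and 0.1650, 0.1984 and 0.2020 in KO, so every KO mouse lay below every WT mouse. The largest increase was that of Trim27-204, an NMD transcript whose stop codon lies 53 bases before its last junction, from a mean share of 0.0845 to 0.1101 with overlapping mice. When all transcripts with the 5 bases are summed, they made up 68.9%, 66.1% and 69.7% in WT and 70.5%, 70.6% and 68.1% in KO of those with or without them, and the genotypes overlapped. A gene of the opposite strand, Gm47806, shares 8112 bases with Trim27; the libraries were stranded.

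Pex2 (chr3:5560188-5576239, reverse strand) encodes a RING protein of the peroxisome membrane that acts in the import of peroxisomal enzymes. All 6 annotated transcripts code for the same 305 residues, and Pex2-202 (ENSMUST00000071280) differs from the most abundant one, Pex2-201, by a 143-base exon in the 5′ UTR and by ends of other length. It was at 0 TPM in the 3 WT mice and at 0.41, 1.51 and 1.74 TPM in KO mice 1, 2 and 3. The lowest KO value was thus in the mouse numbered 1. Its share of the gene went from 0 to a mean of 0.0562, while Pex2-201 went from 0.4895 to 0.4469, with no overlap in either. The 143-base exon is also in Pex2-203, and both transcripts together made up 21.3%, 24.6% and 24.2% in WT and 26.7%, 30.4% and 28% in KO of those that hold or skip it. These sums did not overlap between genotypes, with a difference of means of 4.99 percentage points, but they include the leading transcript that chose the gene. Pex2-203 alone held 0.2125, 0.2464 and 0.2419 of the gene's TPM in WT and 0.2496, 0.2267 and 0.1994 in KO, with overlap. Pex2 also differed with the mouse number: its total was 33.97 and 28.32 TPM in WT1 and KO1 and 19.04 to 21.70 TPM in the other 4.

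Enox2 (chrX:49009707-49288259, reverse strand) encodes an ecto-NOX disulfide-thiol exchanger of the cell surface. Enox2-201 (ENSMUST00000033437) and Enox2-205 code for the same 598 residues and share 98.3% of their exonic bases. Enox2-201 uses a 5′ splice site 56 bases earlier in the first, untranslated exon, at the GT shown above. It was at 0, 0.01 and 0.02 TPM in WT and at 1.40, 0.44 and 0.14 TPM in KO mice 1, 2 and 3, highest in KO1. Enox2-205 held 0.5761, 0.4639 and 0.5257 of the gene's TPM in WT and 0.4242, 0.4723 and 0.4561 in KO, with overlap. Enox2-201 is the only annotated transcript that skips the 56 bases, so those with them made up 100%, 99.9% and 99.9% in WT and 90.7%, 96.9% and 98.9% in KO. The gene total was 12.63, 12.76 and 12.90 TPM in WT and 15.85, 14.88 and 12.99 TPM in KO, also without overlap.

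Slc35c2 (chr2:165276554-165287869, reverse strand) encodes a Golgi protein of the nucleotide sugar transporter family, linked to the fucosylation of Notch. Slc35c2-203 (ENSMUST00000109299) differs from Slc35c2-202 only by a 3′ splice site 65 bases further on in the 5′ UTR, and both code for the same 364 residues as the most abundant transcript, Slc35c2-204. Slc35c2-203 was at 0, 0.03 and 0 TPM in WT and at 0.55, 1.98 and 0.53 TPM in KO. Slc35c2-216, whose annotated coding part is incomplete, uses the same site and went the other way, from 4.10, 2.37 and 1.94 TPM in WT to 1.79, 1.07 and 0.98 TPM in KO. Summed over all transcripts, those with the 65 bases made up 85.9%, 79.7% and 79.4% in WT and 86.5%, 77.1% and 81.6% in KO. The means were 81.7% in both genotypes, and the mice numbered 1 were highest in each. Slc35c2-204 stood at 39.72 to 41.24 TPM in WT and 40.70 to 42.05 TPM in KO.

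Arhgap33 (chr7:30522226-30535060, reverse strand) encodes a GTPase-activating protein that is found in neurons. It was the most highly expressed of the 10 genes, at 118.77 to 145.59 TPM over the 6 mice. Its leading transcript, Arhgap33-201 (ENSMUST00000044338), was the only one that had at least 10 counts in every mouse. Its TPM was 0.42, 0.29 and 0.84 in WT and 6.09, 2.38 and 6.59 in KO. The 6 values do not overlap, but the whole sequence of Arhgap33-201 is contained in Arhgap33-207 and Arhgap33-204, which add 5′ UTR bases upstream and code for the same 1305 residues. Of all tested transcripts 1.56% are contained in another one of their gene in this way. The 3 transcripts together stood at 87.42, 71.94 and 71.67 TPM in WT and 98.29, 68.75 and 65.33 TPM in KO, with overlap. In Arhgap33 the segment followed over all transcripts was 27 bases at a 3′ splice site of the 5′ UTR, which is in Arhgap33-204 and not in Arhgap33-207. Transcripts with it made up 21.8%, 30.2% and 30.9% in WT and 19.2%, 26.6% and 29.1% in KO, with overlap. The most abundant, Arhgap33-207, held a share of 0.5584 and 0.5084 in WT1 and KO1 and of 0.3608 to 0.4170 in the other mice.

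Phc1 (chr6:122317731-122340561, reverse strand) encodes a Polyhomeotic protein of the Polycomb repressive complex PRC1. Phc1-201 (ENSMUST00000079560) codes for the same 1010 residues as the most abundant form, Phc1-208, but lacks 393 bases upstream in the 5′ UTR. It was at 4.27, 0.39 and 0.19 TPM in WT and at 0, 0.09 and 0.02 TPM in KO. WT1 stood apart, with 2035.3 estimated counts against 191.7 and 84.6 in WT2 and WT3. Transcripts for the 1010-residue protein together made up 44.9%, 32.5% and 31.5% of the gene in WT and 31.5%, 35.8% and 35.4% in KO. Only WT1 lay outside the range of the other mice.

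The largest increase of share in Phc1 was that of Phc1-202, which codes for 958 residues because it skips a 156-base coding exon, a length that keeps the reading frame. The exon (chr6:122332522-122332677, reverse strand) is shown in capitals with 12 transcript bases on each side.
Phc1 exon: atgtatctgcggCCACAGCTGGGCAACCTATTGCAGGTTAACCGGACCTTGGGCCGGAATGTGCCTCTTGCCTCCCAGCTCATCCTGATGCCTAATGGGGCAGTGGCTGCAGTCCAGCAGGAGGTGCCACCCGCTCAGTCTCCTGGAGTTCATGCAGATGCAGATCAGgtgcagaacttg
Phc1-202 was at 2.47, 7.10 and 9.64 TPM in WT and 10.50, 7.47 and 8.63 TPM in KO. Its share change of 0.0735 became -0.0025 without the mice numbered 1. Over all transcripts the exon was held by 61.9%, 55.9% and 53% in WT and 49.5%, 57.4% and 57.8% in KO, with overlap.

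Rab3il1 (chr19:10001669-10038380, forward strand) encodes a guanine nucleotide exchange factor for Rab3A and Rab8, GTPases of vesicle transport. Rab3il1-201 (ENSMUST00000113161) keeps 2975 bases of the 3′ UTR that Rab3il1-207 removes as an intron, and both code for the same 383 residues. It was at 0.00 TPM in the 3 WT mice, with 0.1, 0 and 0.2 estimated counts, and at 0.45, 0.23 and 0.66 TPM in KO, with 297.4, 178.1 and 454.6 counts. Rab3il1-207, annotated as an NMD transcript, ranged from 2.20 to 2.34 TPM in WT and from 2.16 to 2.50 TPM in KO. Of these 2 transcripts, the long form made up 15.3%, 9.6% and 23.3% in KO. It is the leading transcript with the most sequence of its own, 2472 exonic bases found in no other transcript of the gene.

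The most abundant transcript, Rab3il1-202, codes for 310 residues because it skips a 219-base coding exon. The exon (chr19:10028285-10028503, forward strand) is shown in capitals with 12 transcript bases on each side.
Rab3il1 exon: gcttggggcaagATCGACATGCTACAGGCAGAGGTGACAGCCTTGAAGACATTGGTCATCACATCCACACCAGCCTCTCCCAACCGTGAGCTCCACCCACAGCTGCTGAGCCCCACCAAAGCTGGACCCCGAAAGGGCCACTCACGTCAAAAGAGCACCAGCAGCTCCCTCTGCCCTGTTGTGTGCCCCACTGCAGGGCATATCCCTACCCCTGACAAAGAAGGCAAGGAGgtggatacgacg
Transcripts that hold the exon made up 17.3%, 24.4% and 23.8% in WT and 24.9%, 26.4% and 29.3% in KO. The genotypes did not overlap, though KO1 lay close to WT2, and the means differed by 5.02 percentage points. These percentages include the leading transcript that chose the gene. Rab3il1-207 also holds the exon. Its share of the gene's TPM was 0.1646, 0.2249 and 0.2172 in WT and 0.1946, 0.2175 and 0.1946 in KO, with overlap. The mean share of Rab3il1-202 was 0.7287 in WT and 0.6629 in KO, with overlapping mice.

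Crbn (chr6:106780201-106800077, reverse strand) encodes cereblon, the substrate receptor of a CUL4 ubiquitin ligase and the target of thalidomide. Crbn-204 (ENSMUST00000151484) begins at an 87-base first exon, whose bases otherwise lie only in the single-exon transcript Crbn-205, and ends early, with 253 annotated residues and no stop codon. It was at 1.21, 0.15 and 2.49 TPM in WT and at 0, 0.01 and 0 TPM in KO, so that WT2 lay nearer to the KO mice than to the other WT mice. Crbn-202, the most abundant form, went from a mean share of 0.6259 to 0.6820, and Crbn-201 from 0.3014 to 0.2745, with no overlap in either. Crbn-202 differs from Crbn-201 by 3 coding bases at a 3′ splice site (chr6:106795995-106795997, reverse strand), which give 445 and 444 residues. They are in capitals in the first line, and the base on each side of the join in the second.
Crbn-202: cgcttctgcctgCAGacagtgaagatg
Crbn-201: cgcttctgcctGAcagtgaagatg
The intron of Crbn-201 ends with the AG that Crbn-202 keeps. Transcripts with the 3 bases made up 66.4%, 70.2% and 63.5% in WT and 71.9%, 73.6% and 71.6% in KO. The genotypes were apart, with means that differed by 5.71 percentage points. The transcripts without the 3 bases include the leading transcript, Crbn-204. Trnt1 lies on the opposite strand and shares 2274 bases with Crbn.

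Skiv2l (chr17:34839228-34850210, reverse strand) encodes the helicase of the SKI complex, which feeds RNA to the cytoplasmic exosome. Of its 11 annotated transcripts 8 are retained_intron forms. Skiv2l-202 (ENSMUST00000172686) is one of them, a 3-exon RNA of 832 bases that keeps a 348-base intron and then joins past a 107-base exon to a 3′ splice site 77 bases inside the next one. It was at 0 TPM in all WT mice and at 0.76, 0.69 and 1.26 TPM in KO. Skiv2l-201, which codes for 1244 residues, stood at 25.19 to 29.47 TPM in WT and 28.40 to 29.42 TPM in KO. The 348-base intron is also kept by Skiv2l-210, and transcripts that keep it made up 15.4%, 24.6% and 23.9% in WT and 17.8%, 21.6% and 23.1% in KO, with overlap. In both genotypes the mouse numbered 1 had the lowest value.

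Skiv2l-210 had the largest decrease of share, from 0.1537 to 0.1392 with overlapping mice. It keeps a further 147-base intron that is in no other transcript of the gene. This intron (chr17:34846996-34847142, reverse strand) is shown in capitals, from its GT to its AG, with 12 transcript bases on each side.
Skiv2l intron: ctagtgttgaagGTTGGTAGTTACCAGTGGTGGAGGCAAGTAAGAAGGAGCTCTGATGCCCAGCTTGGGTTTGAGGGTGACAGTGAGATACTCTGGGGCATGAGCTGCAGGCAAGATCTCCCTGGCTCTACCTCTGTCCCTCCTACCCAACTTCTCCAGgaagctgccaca
Skiv2l-210 was at 5.67, 11.85 and 11.87 TPM in WT and at 6.88, 9.50 and 10.10 TPM in KO, lowest in the mice numbered 1.

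Poln (chr5:34007179-34169448, reverse strand) encodes DNA polymerase nu, and its RNA was scarce: 0.56, 0.49 and 0.45 TPM in WT and 1.23, 0.75 and 0.84 TPM in KO. Haus3 lies on the same strand and shares 15569 bases with it. Poln-205 (ENSMUST00000202409) skips a 54-base coding exon and codes for 848 residues against 866 in Poln-201. The exon (chr5:34105176-34105229, reverse strand) is shown in capitals with 12 transcript bases on each side.
Poln exon: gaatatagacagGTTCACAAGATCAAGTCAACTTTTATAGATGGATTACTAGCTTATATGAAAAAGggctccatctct
Poln-205 was at 0.21, 0.08 and 0.14 TPM in WT, from 68.4, 27.1 and 45.3 estimated counts, and at 0 TPM in all KO mice. The largest increase was that of Poln-207, a processed transcript that the filter on low counts had removed from the test, from 0 in WT to 0.50, 0.26 and 0.07 TPM in KO, or 15.5, 9.8 and 2.3 counts. Poln-206, which codes for 822 residues, was at 0 TPM in WT and at 0.05, 0.03 and 0.05 TPM in KO. Poln-205 skips the 54-base exon, and so do Poln-203, Poln-204 and Poln-207. Those that hold it made up 48%, 54% and 29.1% in WT and 37.2%, 49.7% and 52.5% in KO, with overlap.

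Across the 10 genes, 1 splicing segment each was thus followed over all transcripts that hold or skip it, with the segments chosen after the transcript values were seen. In 4 (Rab3il1, Crbn, Pex2 and Enox2) the genotypes did not overlap, and in 6 they did, but the sums in those 4 include the leading transcript that chose the gene. This count depends on the segment picked in each gene: of all 29 segments followed in the 10 genes, 10 did not overlap, among them 2 that only Skiv2l-202 skips and 3 that only Poln-207 skips. No background over all genes was computed for these kinds of segment together. Of the 11 cassette exons in the 10 genes 6 did not overlap, against 9.07% of the 24510 annotated exons that another transcript skips in the tested genes. Nothing is read from any of these counts, because transcripts of these genes were what chose them. The mean percentage with the segment was higher in KO by 4.99 to 5.71 percentage points in Rab3il1, Crbn and Pex2, and its change in Enox2 was -4.44 points.

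**Figure D3:**
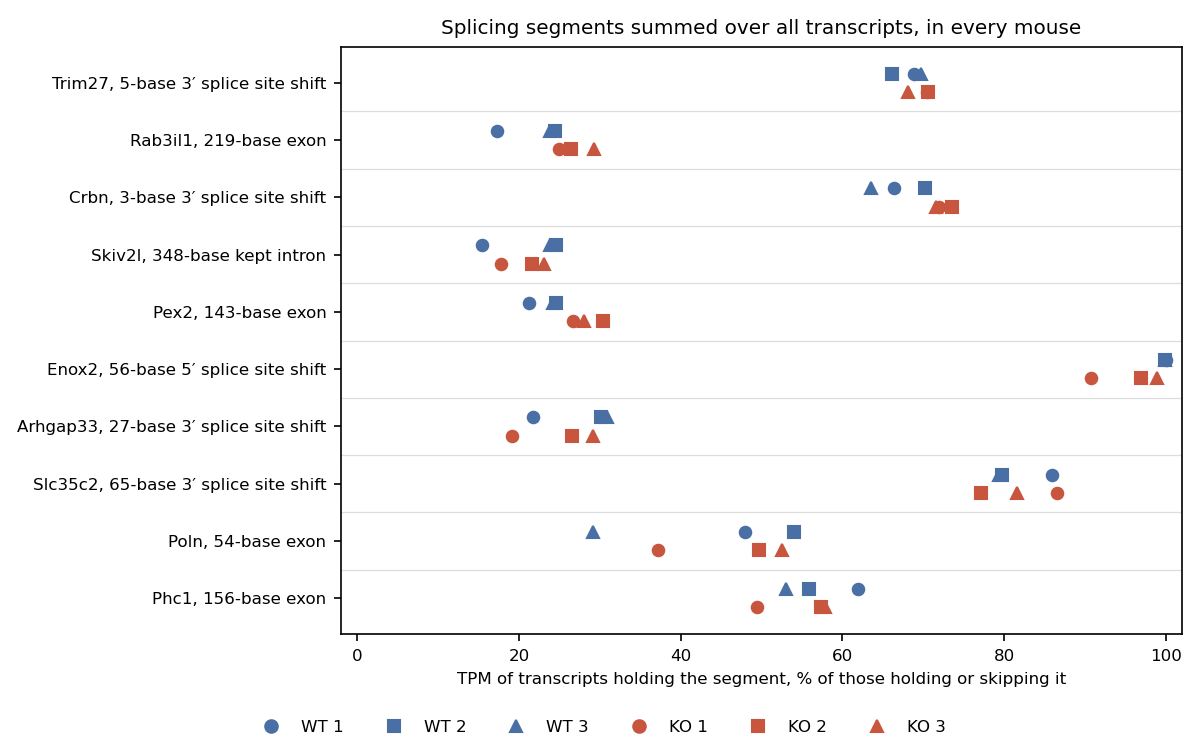
Each row gives 1 splicing segment and, on the horizontal axis, the percentage of TPM from transcripts that hold it among those that hold or skip it, in each WT (blue) and KO (red) mouse, with the replicate number as the symbol. The red points lie wholly to one side of the blue in the Rab3il1, Crbn, Pex2 and Enox2 rows and among them in the others.

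Without the leading transcript, the summed TPM of the other transcripts overlapped between genotypes in 9 of the 10 genes, Poln being the exception. Of all 13560 tested genes 814 (6.0%) did not overlap without their leading transcript, and 6.21% did not in total. The Poln total without Poln-207, a transcript of few counts, was 0.56, 0.49 and 0.45 TPM in WT and 0.73, 0.49 and 0.77 TPM in KO, with overlap. In edgeR's quasi-likelihood test of gene totals, 0 of the 10 passed an adjusted p below 0.01 with a fold change above 1.5, where the background was 0 of 20315 genes (0%); 252 genes had an unadjusted p below 0.05 and DESeq2 called 4. Prmt9, the deleted gene, did not pass either, with a log2 fold change of -1.71 (SE 0.10) and an adjusted p of 0.03269 in edgeR's test, so a gene of that change goes uncalled at this threshold. Log2 fold changes of KO against WT ran from -0.17 in Pex2 to 0.26 in Poln, with standard errors of 0.36 and 0.33. Their median was -0.041, against -0.011 over all genes.

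**Figure D4:**
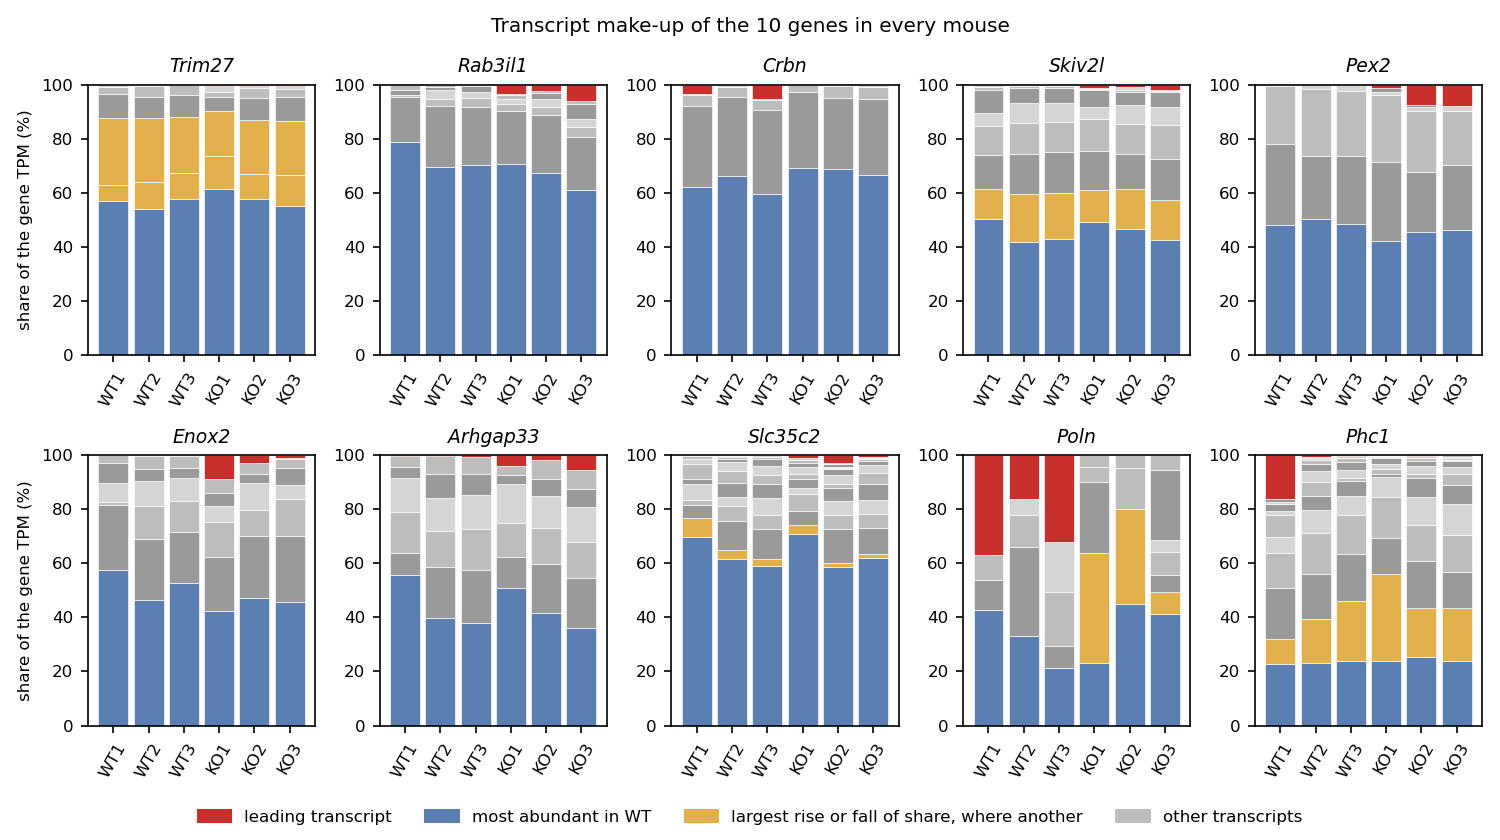
Stacked bars give the share of each gene's TPM (percent, from 0 to 100) carried by its annotated transcripts in every mouse; red marks the leading transcript, blue the most abundant one in WT, yellow the one with the largest rise or fall of share where that is another, and greys the rest. Red takes at most 16.3% of a bar outside Poln, where it reaches 37% in WT1.

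Partners and relatives of the 10 genes were listed from general knowledge, among them the CUL4 ligase subunits of cereblon (Ddb1, Cul4a, Cul4b, Rbx1), the SKI complex subunits Ttc37 and Wdr61, the peroxins Pex10 and Pex5, and the PRC1 genes Ring1, Rnf2, Bmi1, Phc2 and Phc3. Of these 30 genes 29 could be tested for transcript usage, and 0 were called or had an unadjusted p below 0.05 in edgeR's test. Over all 13560 genes that test called 23, and 234 had an unadjusted p below 0.05. Limma called 0 of the 29 and 4 of 13560. At the gene level 0 of 30 had an unadjusted p below 0.05, against 252 of all 20315 genes. With so low a background, 0 in a list this short is not read as a result. Log2 fold changes of the 30 ran from -0.18 to 0.33. With both mice numbered 1 left out, 1 of them was called for usage, Arhgap32, a relative of Arhgap33, with an adjusted p of 0.004788 in edgeR's usage test; that fit called 249 of 13666 genes (1.82%).

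How many of the 10 genes the usage test called depended on the setting. With mice of the same number treated as pairs (the replicate block) it called 5 of them (Trim27, Rab3il1, Skiv2l, Pex2 and Arhgap33). That fit called 13 of all 13560 genes. Limma called 2 of the 10 (Skiv2l and Arhgap33) and 4 of all 13560. With at least 10 counts required in every mouse, the test called 1 of 11942 genes, Arhgap33. It is the only one of the 10 whose leading transcript passes that filter. Without KO mouse 3 the test called 4 of the 10 and 9 of all 13762 genes. Without WT mouse 2 it called 6 of the 10 and 21 of 13765. Without KO mouse 1 it called 6 of the 10 and 16 of 13795. Trim27, Rab3il1 and Arhgap33 were called in 12 of 14 alternatives, Phc1 in 5 and Slc35c2 in 3.

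**Figure D5:**
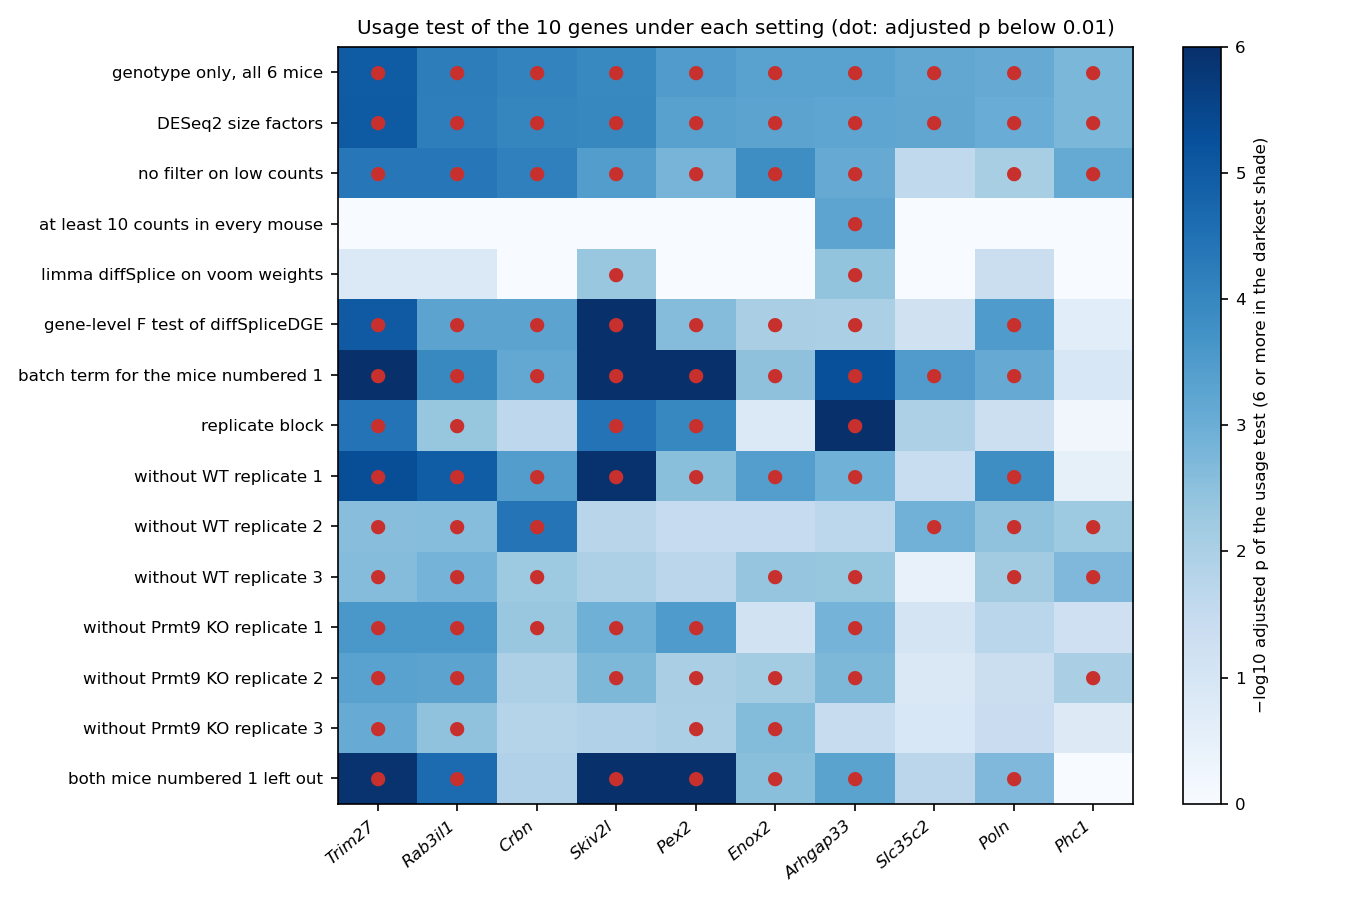
Each cell gives the −log10 of the adjusted p of a gene (columns) in the usage test under a setting (rows), with a red dot where the adjusted p is below 0.01. The top row is the fit that chose the genes, with 10 dots, and the replicate block row has 5.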

How the data were processed

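Per the submitters' processing notes, reads were handled with STAR 2.7.1a and kallisto 0.46.0; the methods name a different kallisto version, and the files do not settle it. The deposited tables give, for each mouse, every transcript's length with the authors' estimated count and TPM. Of 118783 transcripts, 116622 were matched to GENCODE M21 (GRCm38) and 2161 were not used. Estimated counts were rounded to whole numbers, filtered with filterByExpr and scaled by TMM in edgeR 4.0.16. Transcript usage was tested with diffSpliceDGE and a Simes test per gene, gene sums with the quasi-likelihood test, both over all genes with Benjamini-Hochberg adjustment; limma 3.58.1 and DESeq2 1.42.0 served as alternatives. The scripts were tested on simulated data. The 10 genes and all lists were chosen with earlier results of these data known. In each gene the text names the leading transcript, those with the largest increase and decrease of mean share, the most abundant one, and any whose mean share moved by at least 0.05 without overlap; other transcripts were named after their values were seen. Mice of the same number deviated together from their group means (correlations of 0.797, 0.721 and 0.695 for numbers 1, 2 and 3), and the replicate block was kept for that reason; WT3 with KO2 (0.750) and WT2 with KO3 (0.652) did so as well, so the mice numbered 1 stood apart and numbers 2 and 3 were not told apart. The labels do not say that a number marks a pair. Counting limits cover counting error only.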

Additional observations from a re-analysis of the deposited data

How the results depend on the processing

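Of the 10 genes, the usage test called 10 with genotype alone, 5 with the replicate block, 2 with limma and 1 when transcripts needed at least 10 counts in every mouse, where all but 1 leading transcript are removed. Leaving out 1 mouse at a time gave 4 to 8, with 6 without WT2, 6 without KO1 and 4 without KO3. Over all genes the 23 calls became 13 with the replicate block (8 of them among the 23), 4 with limma, 36 without a filter on low counts, 1 with at least 10 counts in every mouse, 52 when a batch term set the number 1 mice apart and 249 without them. Leaving out 1 mouse at a time gave 9 (without KO3) to 143 (without WT1). The partner genes had 1 call without both mice numbered 1. At the gene level DESeq2 called 4 genes, and the batch term and the omission of both mice numbered 1 gave 1 each; 0 of the 10 genes were called in any of these. The cause of these differences was not tested. Of 246 recomputed share changes of 21 transcripts, 226 moved by less than the spread between mice and 20 by more. Many of the 226 could not have moved by more. Leaving out 1 of 3 mice always shifts a mean by less than that spread, and the replicate block leaves the difference of means unchanged. The count is therefore no measure of how stable the changes are. The sign differed in 3 of the 246. Arhgap33-207, at -0.0171, was at 0.0392 without WT1 and 0.0168 without KO3. Phc1-202 was at -0.0025 without both mice numbered 1. Low counts limit most leading transcripts, and how reads were divided among overlapping transcripts has an error that the tables used here do not give.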
